A study of Mus musculus with 6 samples.

Results

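CDR3 with a net positive middle are junctions of the β chain of the T cell receptor in which lysine and arginine outnumber aspartate and glutamate in the middle of the loop. They were taken from all 6 libraries. A CDR3 was sorted if it carried no stop or frame mark, began with C, ended in F or W and was 12 to 16 residues long. The first 4 and last 4 residues were dropped, which leaves a middle of 4 to 8 residues, and a member had at least 1 more K or R than D or E in that middle. Each distinct trio of CDR3, TRBV and TRBJ is called a clonotype. Of 187625 distinct unmarked clonotypes, 164395 could be sorted, and 24524 of these had a net positive middle. The comparison class, with a net charge of -1 or below, held 75700 clonotypes, and 64171 had a net charge of 0.

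The libraries came from C57BL/6 mice with MO4 tumors, a B16F10 melanoma line that makes ovalbumin. Each hindlimb received 100000 tumor cells on day 0, and 1000000 IFN-α-iPSC-pMC (interferon-α-producing myeloid cells grown from induced pluripotent stem cells) were placed beside the right tumor on day 5 and again on days 6, 7, 12 and 13. Tumor RNA was taken on day 14. There are 2 libraries each of the treated (right) tumor, of the distant tumor, taken to be the left one, and of spleen. All 3 tissues therefore come from tumor-bearing animals whose right tumor was treated, and there is no untreated animal. The series names 2 mice, and equal library numbers were taken as the same mouse. The tumors are grown from 1 transplanted line that carries a foreign antigen, and the RNA is that of whole tissue with no sorting of T cells. The files hold receptor sequences only, so the tissue labels could not be checked against marker genes. More T cells of a clone and more receptor RNA per cell cannot be told apart.

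The CDR3 of the β chain is made when a TRBV, a TRBD and a TRBJ segment are joined, with bases trimmed from the ends and others added without a template. In most receptors whose structures are known, its middle lies over the peptide held by the MHC molecule, while its first and last residues sit at the foot of the loop. Charge in the middle can therefore come from the segments themselves or from what the joining adds.

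The germline ends show where charge is already written. They are printed 5′ to 3′ on the coding strand, from the GENCODE M21 annotation of GRCm38, all on chromosome 6, from the base that starts the CDR3 for TRBV and up to the CDR3's last codon for TRBJ. Capitals mark codons for charged residues and, at the end of a TRBV, an incomplete codon that gives D or E if its first bases GA are kept and one base is added. TRBD is shown read in frame 3. The first 3 lines are the TRBJ segments with an acidic residue inside the middle. The next 2 are TRBJ segments whose acidic residue falls in the last 4, outside it.
TRBJ1-4: tttccaacGAAAGAttatttttc
TRBJ2-3: agtgcaGAAacgctgtatttt
TRBJ2-5: aaccaaGACacccagtacttt
TRBJ1-1: caaacacaGAAgtcttcttt
TRBJ1-2: caaactccGACtacaccttc
TRBV13-2: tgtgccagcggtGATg
TRBV5: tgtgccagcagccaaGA
TRBV17: tgtgctagcagtAGAGA
TRBV20: tgtggtgctAGGGA
TRBD1: ggGACAGGgggc
TRBD2: ggGACtgggggggc

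TRBJ1-4 lies at chr6:41534811-41534861, TRBJ2-3 at chr6:41543223-41543271 and TRBJ2-5 at chr6:41543453-41543501. TRBV17 lies at chr6:41163062-41163556 and TRBV13-2 at chr6:41121396-41121832. These are segments of the TCR-β locus, and the bases shown are the coding ends that enter the joint. Among 12 TRBJ segments, 3 place an acidic and 0 a basic residue in the middle. The arginine codon of TRBJ1-4, the second one in capitals, falls in the last 4 residues. Among 22 TRBV segments with a germline end, TRBV13-1, TRBV13-2 and TRBV13-3 give D at position 5 of the CDR3. Of the 22, 7 end in GA with no stop codon before it, and TRBV17 is the 1 with a basic residue, R, at position 5. TRBV4 also ends in GA, but behind a stop codon, and its GA was not counted as germline. The arginine of TRBV20 stands at the fourth place and is dropped. TRBD1 read in frame 3 gives D, R and G, a net charge of 0, and TRBD2 in frame 3 gives D and no basic residue.

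The charged residues of the members matched TRBV or TRBJ less often than those of the net negative class in all 6 libraries. A charged residue was counted as germline where it equalled the TRBV residue at the same place from the left, could complete the partial TRBV codon there, or equalled the TRBJ residue at the same place from the right, and TRBD was not counted. In treated tumors 1 and 2, 98.5% and 97.1% of the members' basic residues matched neither segment, in distant tumors 97.5% and 96.0%, and in spleens 95.8% and 95.6%. Of the acidic residues of net negative middles, 48.0% and 47.3% matched neither segment in treated tumors, 52.0% and 47.7% in distant tumors and 40.9% and 41.8% in spleens. TRBJ alone accounted for 25.5% to 32.9% of the acidic residues over the 6 libraries and for 0% of the basic ones. TRBV17 accounted for the germline share of the members, 1.54% to 4.36%.

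Leading members and members shared between libraries show how few residues carry the charge. They are given whole where the CDR3 has up to 14 residues, with 1 exception of 13, and by their middle otherwise, in one-letter amino acid code. The first 3 lead the treated tumors, and the next 3 were shared between libraries, some at few reads. The first and the last carry their charge as K.
Treated tumor 2, TRBV5 and TRBJ2-7: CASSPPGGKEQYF
Treated tumor 1, TRBV15 and TRBJ1-1, middle of 15 residues: FQGRTNT
Treated tumor 1, TRBV16 and TRBJ2-7: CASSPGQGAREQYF
Number 2, all tissues, TRBV20 and TRBJ1-2, middle of 13 residues: RGANS
All 6 libraries, TRBV17 and TRBJ2-7: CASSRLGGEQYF
Both spleens, TRBV17 and TRBJ1-3: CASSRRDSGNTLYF
Treated tumor 1, TRBV29 and TRBJ2-7: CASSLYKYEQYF

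Members made up 18.6% and 17.7% of the sortable clonotypes in treated tumors 1 and 2, 16.9% and 16.3% in distant tumors 1 and 2, and 13.6% and 14.0% in spleens 1 and 2. The 4 tumors lay above both spleens without overlap, and both treated tumors lay above both distant tumors. The 95% Wilson intervals were 17.8% to 19.3% for treated tumor 1, 15.5% to 17.1% for distant tumor 2 and 13.8% to 14.2% for spleen 2. Intervals cover counting error only, since no molecular identifiers are named and a PCR read is not an independent molecule. Tumors averaged 17.4 ± 0.98% (SD, n = 4) and spleens 13.8 ± 0.271% (SD, n = 2), a difference of 3.57 percentage points. The exact permutation test, two-sided, gave p = 0.0667, the smallest that 4 libraries against 2 allow, and 0.267 after Benjamini-Hochberg adjustment over 8 comparisons. Treated tumors averaged 18.1 ± 0.651% and distant tumors 16.6 ± 0.427% (SD, n = 2 each), a difference of 1.51 points with p = 0.333 in the exact permutation test, again the smallest possible. The sign of both differences was the same within each library number, with treated minus distant at 1.67 and 1.35 points.

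By reads the order was different. Members held 15.8% and 12.4% of sortable reads in treated tumors 1 and 2, 7.25% and 11.7% in distant tumors, and 12.6% and 13.1% in spleens. Distant tumor 1 stood below every other library, and treated tumor 1 above every other. In distant tumor 1 a single clonotype of net charge 0 held 19.7% of the sortable reads, while the leading member there held 0.141%. The tumors minus spleens difference was -1.04 points (exact permutation p = 0.6) and turned to 0.0669 points when the 10 most abundant clonotypes of each library were left out. Treated minus distant was 4.61 points, with 8.54 points in number 1 and 0.686 points in number 2 (exact permutation p = 0.333). It was 2.92 points without treated tumor 1 and 2.38 points without distant tumor 1. It was 0.559 points without the 10 most abundant clonotypes, and 0.0867 points with 3 residues dropped at each end in place of 4.

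**Figure D1:**
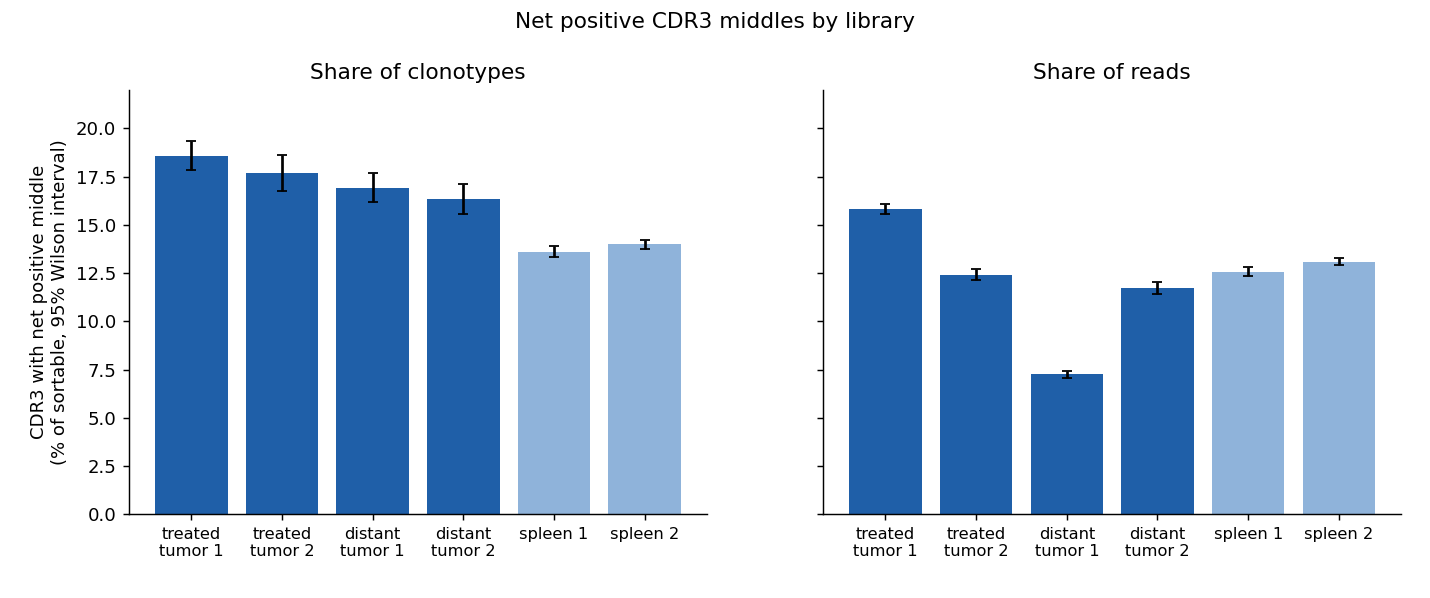
Share of sortable clonotypes (left) and reads (right) with a net positive middle in each library, in percent, with 95% Wilson intervals for counting error. By clonotypes the 4 tumors, at 16.3% to 18.6%, lie above the spleens, at 13.6% and 14.0%. By reads distant tumor 1 lies lowest, at 7.25%.

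With all middle residues counted, the net negative class did not separate the tissues. It held 45.3% and 48.1% of clonotypes in treated tumors, 42.4% and 45.4% in distant tumors and 47.1% and 46.4% in spleens. The log2 ratio of positive to negative clonotypes was -1.28 and -1.45 in treated tumors, -1.33 and -1.48 in distant tumors and -1.79 and -1.73 in spleens. Tumors exceeded spleens by 0.38 on this log2 scale (exact permutation p = 0.0667, the smallest possible). With germline residues left out by position the difference was 0.12 (exact permutation p = 0.133), with 5 residues dropped at each end in place of 4 it was 0.00, and with a germline stretch ended at the first mismatch it was -0.19, so its size and sign depended on how residues at the ends of the loop were counted. The share of positive clonotypes did not turn with that choice. Without germline residues by position it was 28.1% and 28.1% in treated tumors, 26.4% and 26.7% in distant tumors and 22.7% and 22.8% in spleens. By that count the net negative class lay higher in tumors too. It held 21.9% and 23.1% in treated tumors, 22.4% and 23.0% in distant tumors and 20.5% and 20.5% in spleens. Middles of charge 0 were fewer in tumors, at 48.8% to 51.2%, against 56.8% and 56.7% in spleens.

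Tumors lay above spleens at stronger charge too. A net charge of 2 was found in 3.14% and 2.90% of clonotypes in treated tumors, 2.67% and 2.65% in distant tumors and 1.51% and 1.61% in spleens. A net charge of 3 made up 0.451% and 0.323% in treated tumors, 0.321% and 0.369% in distant tumors and 0.0953% and 0.148% in spleens. Every tumor lay above both spleens at each of these charges. These shares are parts of the total above and were not tested on their own.

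Sequences that departed from the germline ends were more common in tumors, and their part in the difference was addressed only by the settings given here. The first 3 residues of a CDR3 come from TRBV and lie outside the middle, and they differed from the usual start of their TRBV gene in 22.9% and 24.8% of sortable clonotypes in treated tumors, 22.2% and 18.4% in distant tumors and 5.65% and 6.32% in spleens. Clonotypes 1 residue away from one with the same TRBV, TRBJ and length and at least 20 times its reads made up 26.1% and 33.7% in treated tumors, 21.4% and 13.7% in distant tumors and 0.424% and 0.335% in spleens. The larger clonotype must have at least 20 reads, which few did in spleens. Of sortable clonotypes, 215 of 57716 and 251 of 82352 had 10 to 99 reads in spleens 1 and 2, against 1126 of 10413 in treated tumor 1. Few spleen clonotypes could therefore count as such a variant, and the shares of tumors and spleens are not on like terms. When such variants were merged the tumors minus spleens difference in the share of members was 4.25 points, and with both germline ends required to be intact it was 3.20 points. When clonotypes of 1 read were left out it was 1.72 points, with 14.0% and 13.0% in treated tumors, 12.4% and 13.0% in distant tumors and 11.2% and 11.5% in spleens, still without overlap. The exact permutation p was 0.0667 in each of these settings. With 5 residues dropped at each end the difference was 1.82 points (exact permutation p = 0.267).

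Members were rarer among clonotypes of 10 to 99 reads than among those of 1 read. Of clonotypes with 1 read, 20.02% and 18.8% were members in treated tumors, 18.6% and 17.8% in distant tumors and 14.5% and 14.9% in spleens. Of clonotypes with 10 to 99 reads the share was 13.3% and 13.3% in treated tumors, 12.9% and 11.3% in distant tumors and 9.77% and 11.2% in spleens. Members were fewer in the second bin in every library. Among the 100 most abundant clonotypes of a library, members numbered 11 and 9 in treated tumors, 10 and 13 in distant tumors and 12 and 14 in spleens, of 93 to 97 that could be sorted. That is 11.7% and 9.38% in treated tumors, 10.8% and 13.4% in distant tumors and 12.5% and 14.9% in spleens. Over all sortable clonotypes the shares were 18.6% and 17.7%, 16.9% and 16.3%, and 13.6% and 14.0%. All tumors lay below their own share over all clonotypes, while spleen 1 lay near it and spleen 2 above it.

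**Figure D2:**
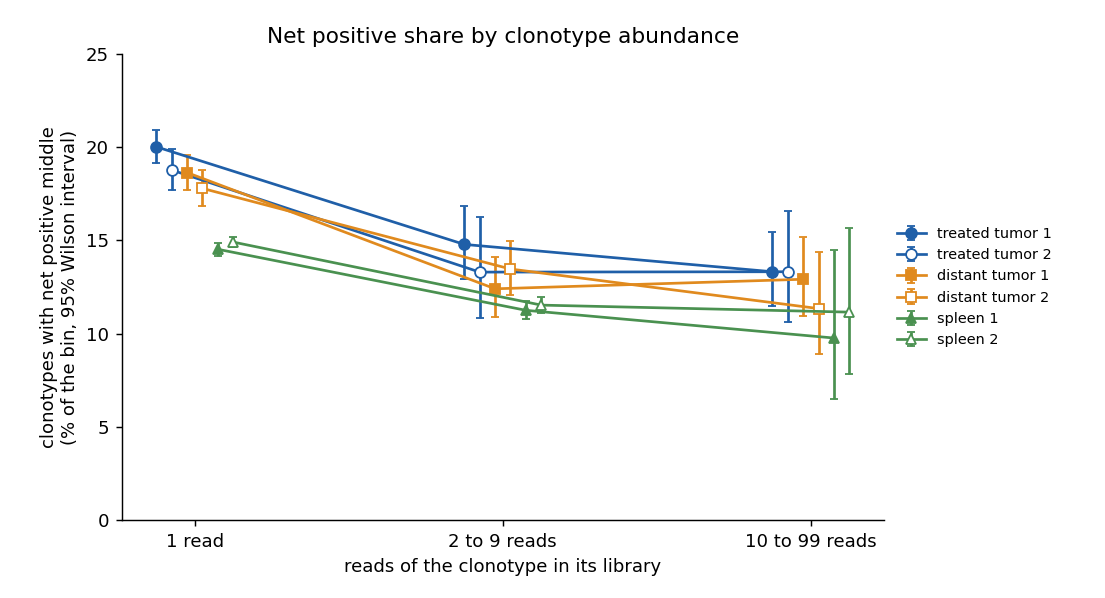
Percent of clonotypes with a net positive middle, by the reads of the clonotype in its library, with 95% Wilson intervals; points are slightly offset along the horizontal axis. The share at 1 read lies above the share at 10 to 99 reads in all 6 libraries, and tumors lie above spleens at 1 read.

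Compared with net negative clonotypes, members were more often seen as a single read and less often found in a further library. In members 82.0% and 85.8% of clonotypes had 1 read in treated tumors, 79.6% and 75.5% in distant tumors and 76.9% and 77.5% in spleens. In the net negative class these shares were 75.8% and 79.5% in treated tumors, 70.9% and 68.4% in distant tumors and 70.8% and 72.2% in spleens. Members were higher in 6 of 6 libraries, by 6.64 ± 1.13 points (SD, n = 6). The exact permutation test by sign flips over the libraries, two-sided, gave p = 0.0312, the smallest possible, and the same value after adjustment over 5 measures. It treats the 6 libraries as independent, though the series names 2 mice, so p does not measure the spread between mice. The same holds for the other sign-flip tests.

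A member was found in a library of the other number, and so presumably of the other mouse, in 3.60 ± 0.95% of cases, and a net negative clonotype in 7.83 ± 2.17% (SD, n = 6 each). The difference was -4.22 points, with members lower in 6 of 6 libraries. It was largest in spleen 1, at 5.30% for members and 11.6% for net negative clonotypes. Between libraries of the same number the values were 5.89 ± 4.16% for members and 9.54 ± 6.44% for net negative clonotypes, lower in 6 of 6. Members held 3.62 ± 2.11 reads per clonotype and net negative clonotypes 5.27 ± 3.34. Mean CDR3 length differed by -0.105 residues. Each of these had an exact permutation p of 0.0312 by sign flips, the smallest possible.

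All 5 measures changed sign when germline residues were left out of the charge. With residues at germline positions ignored, none of the 5 passed, and clonotypes of 1 read made up 80.0% and 82.9% of net positive clonotypes in treated tumors, 76.5% and 73.6% in distant tumors and 74.8% and 75.8% in spleens. Net negative clonotypes then had 81.2% and 83.5% in treated tumors, 76.8% and 75.7% in distant tumors and 74.1% and 75.7% in spleens. The difference was -0.556 points (exact permutation p = 0.281). For finding in a library of the other number it was 0.432 points (exact permutation p = 0.469), and for length 0.0135 residues (exact permutation p = 0.688). This way of counting was chosen after the main values were seen. With the planned way, in which the germline stretch ends at the first mismatch, 3 of the 5 passed in the reverse direction. The share with 1 read was then -3.57 points, mean reads 1.77 and finding in the same number 1.56 points, each at the smallest exact permutation p of 0.0312.

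**Figure D3:**
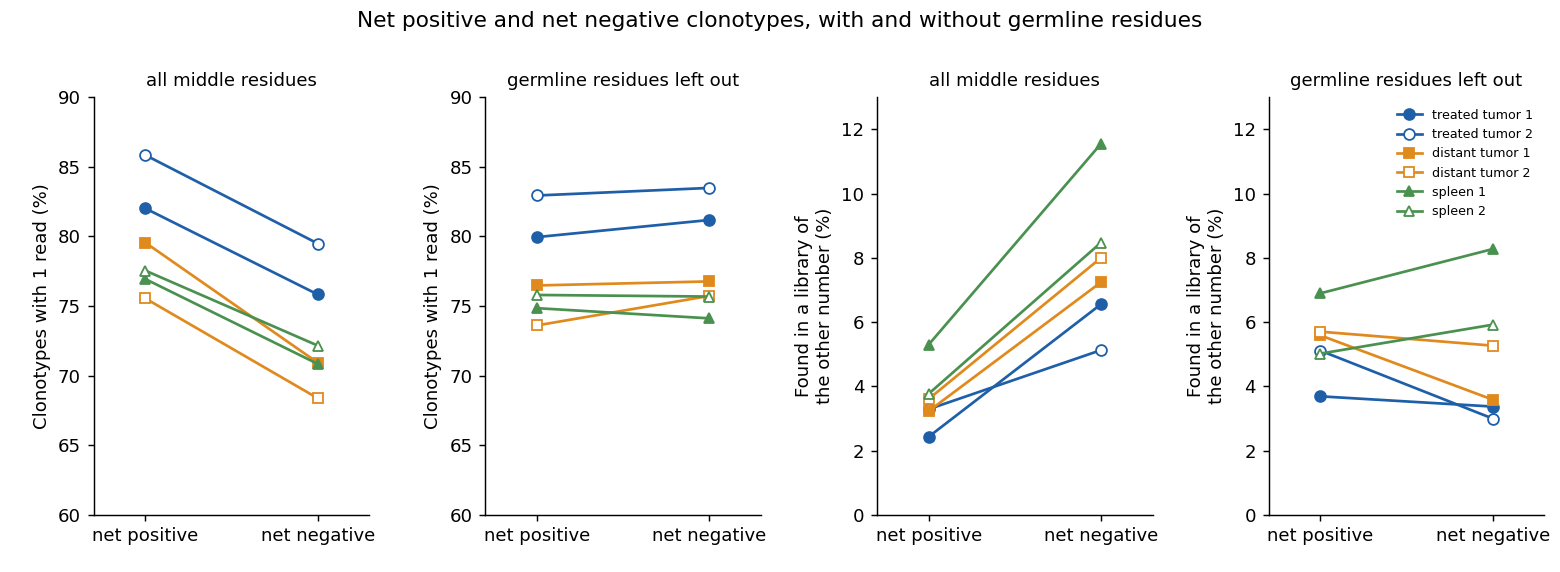
Percent of clonotypes with 1 read (left pair, axis from 60) and percent found in a library of the other number (right pair), for net positive and net negative clonotypes, with 1 line per library. With all middle residues every line runs in the same direction, by 6.64 points and -4.22 points on average. With germline residues left out the lines run both ways.

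Over all libraries 96.9% of distinct members were found in 1 library, against 93.9% of net negative clonotypes. Both spleens shared 387 members, which is 4.93% of those of spleen 1 and 3.36% of those of spleen 2, and 3012 net negative clonotypes, 11.1% and 7.89%. The treated and distant tumors of number 1 shared 68 members, 3.51% of the members in treated tumor 1 and 4.30% in distant tumor 1. In number 2 they shared 58, or 5.30% in treated tumor 2 and 4.10% in distant tumor 2. The treated tumors shared only 7 with each other. Only 2 members were present in all 4 tumors and 1 in all 6 libraries.

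Both of the members found in all 4 tumors used TRBV17, the segment that brings its own arginine. For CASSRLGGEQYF, reads numbered 27 and 46 in treated tumors 1 and 2, 23 and 13 in distant tumors and 6 and 3 in spleens. It was present throughout, at 0.0325% and 0.0821% of unmarked reads in treated tumors, 0.028% and 0.0307% in distant tumors and 0.00619% and 0.00221% in spleens. For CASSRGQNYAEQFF, with TRBJ2-1, they numbered 21 and 7 in treated tumors, 54 and 33 in distant tumors and 0 and 3 in spleens. Both were chosen for being present in every tumor, so this spread is no finding.

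Among the leading members 1 was abundant in both tumors and in the spleen of number 2. The member with the middle RGANS, 13 residues, TRBV20 and TRBJ1-2, had 585 reads in treated tumor 2, 661 in distant tumor 2 and 156 in spleen 2, which is 1.04%, 1.56% and 0.115% of unmarked reads. It had 0 reads in the 3 libraries of number 1, where 3 reads would be a share of 0.00361%, 0.00365% and 0.0031%. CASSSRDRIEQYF, with TRBV19 and TRBJ2-7, had 137, 35 and 112 reads in treated tumor 2, distant tumor 2 and spleen 2, and also 0 in all libraries of number 1. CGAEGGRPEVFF, with TRBV20 and TRBJ1-1, had 45, 160 and 47 reads in those 3 libraries and 1 read in distant tumor 1.

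Other leading members were found in 1 library or mainly in 1. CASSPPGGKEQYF had 1347 reads in treated tumor 2, where it was the fourth most abundant clonotype at 2.40%, and 0 in each of the other libraries. Against a floor of 3 reads per library its share was at least 339-fold higher in treated tumor 2 than in distant tumor 2. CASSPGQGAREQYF had 1006 reads in treated tumor 1 and 0 elsewhere, at least 331-fold higher than in distant tumor 1. The member with the middle FQGRTNT led treated tumor 1 with 2550 reads, 3.07% of its unmarked reads (95% Wilson interval 2.95% to 3.19%). It had 92 reads in distant tumor 1, 1 in distant tumor 2 and 6 in spleen 1, a share 27.4-fold higher in treated tumor 1 than in distant tumor 1. These folds compare pairs of libraries and have no replicate check.

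The leading net negative clonotypes reached like shares. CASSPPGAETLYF, with TRBV5 and TRBJ2-3, had 353 reads in treated tumor 1 and 1639 in distant tumor 1, 0.424% and 2.00% of unmarked reads. Its acidic residue is the germline E of TRBJ2-3, shown above. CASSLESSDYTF, with TRBV15 and TRBJ1-2, had 361 reads in treated tumor 2, 105 in distant tumor 2 and 411 in spleen 2, where it ranked first. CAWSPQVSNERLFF, with TRBV31 and TRBJ1-4, was present in all 6 libraries, with 135 and 16 reads in treated tumors, 18 and 16 in distant tumors and 167 and 22 in spleens.

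How often clonotypes were members differed between TRBV and TRBJ genes, and TRBJ genes with a germline acidic residue in the middle were lowest. Over the 12 TRBJ genes the mean share of members ranged from 4.63% to 27.2%. TRBJ1-4, TRBJ2-3 and TRBJ2-5, with an acidic residue in the middle, were lowest, at 4.63 ± 1.92%, 4.90 ± 1.39% and 5.55 ± 1.62% (SD, n = 6). The highest TRBJ was TRBJ1-1, at 27.2 ± 6.57%, followed by TRBJ1-2 at 23.4 ± 8.48%. Their own E and D fall in the last 4 residues, which the rule drops. Over 19 TRBV genes with at least 50 clonotypes in every library the range was 6.59% to 36.7%. TRBV17 was highest at 36.7 ± 7.47%, and TRBV13-2, TRBV13-1 and TRBV2 were lowest at 6.59 ± 0.653%, 9.06 ± 1.69% and 10.1 ± 1.40%. TRBV2 ends in GA.

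With germline residues left out by position the range narrowed to 19.6% to 33.6% over TRBJ and 19.8% to 32.8% over TRBV. TRBJ1-4 then stood at 25.5 ± 3.58%, TRBJ2-3 at 24.7 ± 1.67% and TRBJ2-5 at 26.9 ± 3.46%. TRBV13-2 stood at 20.7 ± 2.66%, TRBV5 at 29.2 ± 4.32% against 14.8 ± 3.75% with all residues, and TRBV17 at 30.6 ± 9.03%.

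**Figure D4:**
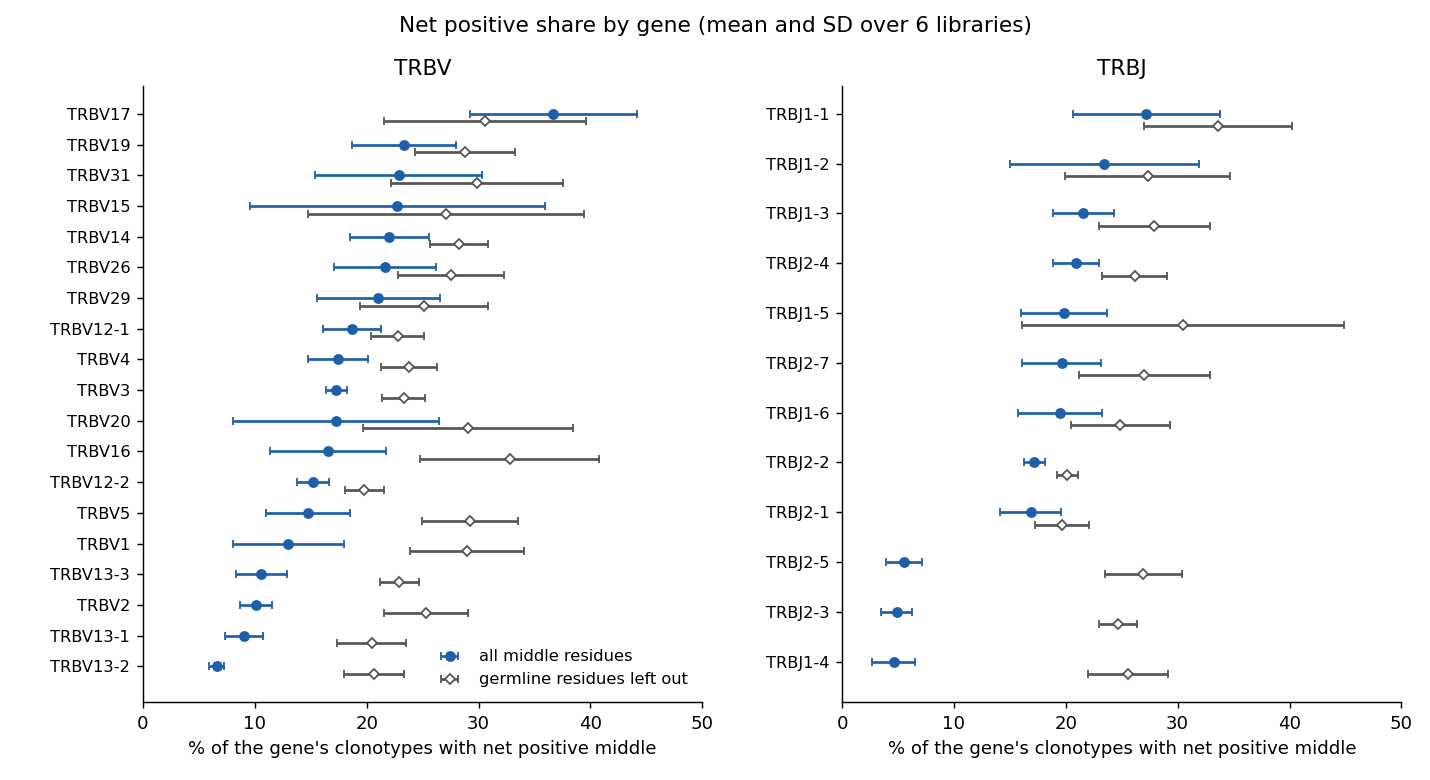
Percent of each gene's sortable clonotypes with a net positive middle, for TRBV (left, 19 genes) and TRBJ (right, 12 genes), as mean and SD over 6 libraries, with all middle residues (filled) and with germline residues left out (open). The 3 TRBJ genes with an acidic residue in the middle stand apart at 4.63% to 5.55% and fall within the range of the others, 19.6% to 33.6%, once germline residues are left out.

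Gene usage of members and of net negative clonotypes was compared with edgeR's quasi-likelihood test on clonotype counts, with library as a term and Benjamini-Hochberg adjustment over the genes. Since the rule reads germline residues, a gene that holds one had to differ. Usage is a share of the class, so a forced deficit in some genes raises the other genes as a group. Of 12 TRBJ genes 10 were called at an adjusted p of 0.05, which is 83.3% of those tested, 7 used more and 3 less by members. TRBJ1-4 fell by 2.74 on the log2 scale (SE 0.208, adjusted p = 1.03e-05), TRBJ2-3 fell by 2.52 (SE 0.128) and TRBJ2-5 fell by 2.26 (SE 0.147). TRBJ1-1 made up 15.1 ± 3.83% of members and 6.02 ± 0.909% of net negative clonotypes (SD, n = 6), a log2 difference of 1.31 (SE 0.116, adjusted p = 2.3e-05). TRBJ1-2, TRBJ1-3 and TRBJ2-4 were more used by members, by 1.12, 0.98 and 0.81, and TRBJ2-7, TRBJ1-5 and TRBJ1-6 by 0.66, 0.64 and 0.61. How much of each increase follows from the forced deficits was not tested. With germline residues left out by position, TRBJ1-2, TRBJ1-3 and TRBJ2-4 were not called, at 0.24, 0.32 and -0.03. TRBJ2-7, TRBJ1-5 and TRBJ1-6 were not called either, at 0.09, -0.04 and -0.13. TRBJ2-1 and TRBJ2-2 did not pass. With tissue and library number as terms in place of the library, TRBJ1-6 was not called (edgeR adjusted p = 0.095). DESeq2 called 6 of the 12, and with 5 residues dropped at each end edgeR called 4, with TRBJ2-3 then at 0.33 (adjusted p = 0.0148).

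Of 21 TRBV genes tested 13 were called, or 61.9%, with 8 used more and 5 less by members. TRBV17 made up 5.54 ± 1.87% of members and 1.42 ± 0.56% of net negative clonotypes (log2 difference 1.98, SE 0.242, adjusted p = 4.37e-05). TRBV14, TRBV26, TRBV19 and TRBV29, none of which has a charged codon in its germline end, were more used by members by 0.99, 0.97, 0.94 and 0.91. TRBV15, TRBV31 and TRBV12-1 followed at 0.79, 0.76 and 0.63, the first of them at an adjusted p of 0.0498. With germline residues left out by position, TRBV14, TRBV26, TRBV19 and TRBV29 were not called, at 0.34, 0.42, 0.42 and 0.06. Their edgeR adjusted p was 0.0987, 0.0987, 0.0729 and 0.787. TRBV15 and TRBV12-1 were not called either, at -0.11 and -0.32. TRBV13-2 fell by 1.80 (SE 0.134, adjusted p = 1.02e-06), with 4.77 ± 1.15% of members and 16.5 ± 2.38% of net negative clonotypes. TRBV13-1, TRBV2 and TRBV13-3 fell by 1.25, 0.94 and 0.90, and TRBV5 by 0.35. With tissue and library number as terms in place of the library, TRBV5 was not called (edgeR adjusted p = 0.0646). With 5 residues dropped, which removes the germline D, TRBV13-2 turned to 0.64 (adjusted p = 0.00112). Reads could be split between the near-identical TRBV13 genes, and between TRBV12-1 and TRBV12-2.

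Without germline residues, by position, 10 TRBV and 4 TRBJ genes were called. Of these, 4 TRBV genes and 1 TRBJ gene had been called in the same direction with all residues. The large deficits of TRBJ1-4, TRBJ2-3 and TRBJ2-5 were then log2 differences of 0.42, 0.13 and -0.01, of which the first passed (adjusted p = 0.0207). The 1 TRBJ gene was TRBJ1-1, at 0.63 (SE 0.139, adjusted p = 0.00242), and TRBJ2-1 and TRBJ2-2, not called with all residues, were less used by members, at -0.69 and -0.62. TRBV17 was at 0.85 (SE 0.198, adjusted p = 0.000998), TRBV5 turned to 0.53 and TRBV13-2 was at -0.66.

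Member reads of single genes were then compared between tissues, in a table with a row for each gene and charge class, so that a change in a gene and a change in its members cannot be told apart. In treated minus distant tumors edgeR called 0 of 21 member rows of TRBV and 0 of 12 of TRBJ. Over all rows 0% of 63 and 0% of 36 were called. At an unadjusted p below 0.05 there were 4 and 0 member rows, and DESeq2 called 0 and 1. The 1 row was TRBJ2-7, with a log2 difference of 1.17 (adjusted p = 0.0499). The 4 TRBV rows were TRBV15, TRBV5, TRBV19 and TRBV12-2, with log2 differences of 2.52, 1.68, 1.54 and 1.47. Without treated tumor 2, TRBV15 and TRBV29 passed, at 3.37 and 1.65, with a single treated library assumed to vary like the others.

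In tumors minus spleens edgeR again called 0 of 21 and 0 of 12 member rows, and 0% of the 63 and 36 rows in all. At an unadjusted p below 0.05 there were 3 and 1. These were TRBV13-2, TRBV4, TRBV31 and TRBJ2-4, at -1.89, -1.50, -0.99 and -0.87, and DESeq2 called 0 of each. Without distant tumor 2, TRBJ1-4 and TRBJ2-5 passed, at -1.78 and -1.73. On clonotype counts in place of reads 2 of 21 member rows of TRBV passed, a share like the 9.68% of all 62 rows. TRBV5 members were higher in tumors by 1.18 (SE 0.295, adjusted p = 0.0236), with 9.82% and 15.5% of members in treated tumors, 9.24% and 7.92% in distant tumors and 5.70% and 5.82% in spleens. TRBV30 members were higher by 2.35 (SE 0.475, adjusted p = 0.00632), on 12 and 7 clonotypes in treated tumors, 9 and 12 in distant tumors and 10 and 22 in spleens. Net negative TRBV30 clonotypes were also called, at 1.62 (adjusted p = 0.0365).

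The share of members among TRBV15 clonotypes stood apart in 1 library. Members made up 48.8% of the TRBV15 clonotypes of treated tumor 1, against 24.0% in treated tumor 2, 14.8% and 18.5% in distant tumors and 15.6% and 14.9% in spleens. That library's leading member, with the middle FQGRTNT, used TRBV15, and 48 of the 215 TRBV15 members there lay 1 residue from it with at most 1 read for every 20 of its own. By reads, members held 69.9% of TRBV15 in treated tumor 1 and 13.8% in treated tumor 2.

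Arginine was the main source of the charge. It was present in the middle of 82.8% and 79.8% of members in treated tumors, 84.9% and 85.3% in distant tumors and 89.5% and 89.3% in spleens. Most members had 1 basic and no acidic residue, at 62.0% and 59.3% in treated tumors, 63.7% and 59.1% in distant tumors and 69.2% and 67.9% in spleens. An acidic residue was present beside the basic ones in 20.5% to 24.7% of members over the 6 libraries.

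The commonest pair of neighbours with a basic residue was R before G, found in 25.9% and 27.4% of members in treated tumors, 31.6% and 28.9% in distant tumors and 30.6% and 31.1% in spleens. G before R followed, with a mean of 23.3% over the 6 libraries. R before T, R before D and R before R had means of 9.02%, 8.95% and 8.22%. The TRBD1 frame that reads D, R and G, printed above, was found whole in 2.10% to 5.00% of members. In CDR3 of 14 residues the members' arginine lay mostly toward the TRBV side. Means over 6 libraries were 27.8% of members at position 5, 28.2% at position 6, 10.1% at position 9 and 11.1% at position 10. The tissues differed, with 35.4% in both spleens and 22.9% to 27.6% in tumors at position 6. At position 10 arginine was in 4.73% and 5.64% of members in spleens and 11.8% to 18.0% in tumors. Lysine lay more toward the TRBJ side, with means of 2.40% at position 5 and 7.29% at position 9. Acidic residues of net negative CDR3 of that length were commonest at position 10, at 50.5%, where the TRBJ residues lie, and at 29.2% at position 5.

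Lysine was more common in the members of tumors. It was present in 33.1% and 34.9% of members in treated tumors, 27.3% and 27.3% in distant tumors and 17.6% and 18.3% in spleens. All tumors lay above both spleens and both treated above both distant tumors. Tumors exceeded spleens by 12.6 points (exact permutation p = 0.0667, the smallest possible) and treated exceeded distant tumors by 6.70 points (exact permutation p = 0.333, the smallest possible). This comparison was added after the data were seen.

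The lysine difference between tumors and spleens was smaller beyond clonotypes of 1 read. Among members of 1 read, 36.6% and 37.1% had lysine in treated tumors, 31.1% and 32.1% in distant tumors and 19.3% and 20.1% in spleens. Among members of 2 to 9 reads the shares were 23.1% and 33.3% in treated tumors, 14.2% and 11.6% in distant tumors and 12.0% and 12.4% in spleens. Among those of 10 reads or more they were 9.88% and 8.11% in treated tumors, 9.52% and 16.1% in distant tumors and 22.7% and 10.0% in spleens, on 22 and 30 members in the spleens. With clonotypes of 1 read left out, tumors exceeded spleens by 3.55 points (exact permutation p = 0.133), and treated exceeded distant tumors by 6.72 points (exact permutation p = 0.333). With 1-residue variants merged tumors exceeded spleens by 14.2 points, and with intact germline ends by 12.2 points. The part of sequence error in these single reads was not tested.

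**Figure D5:**
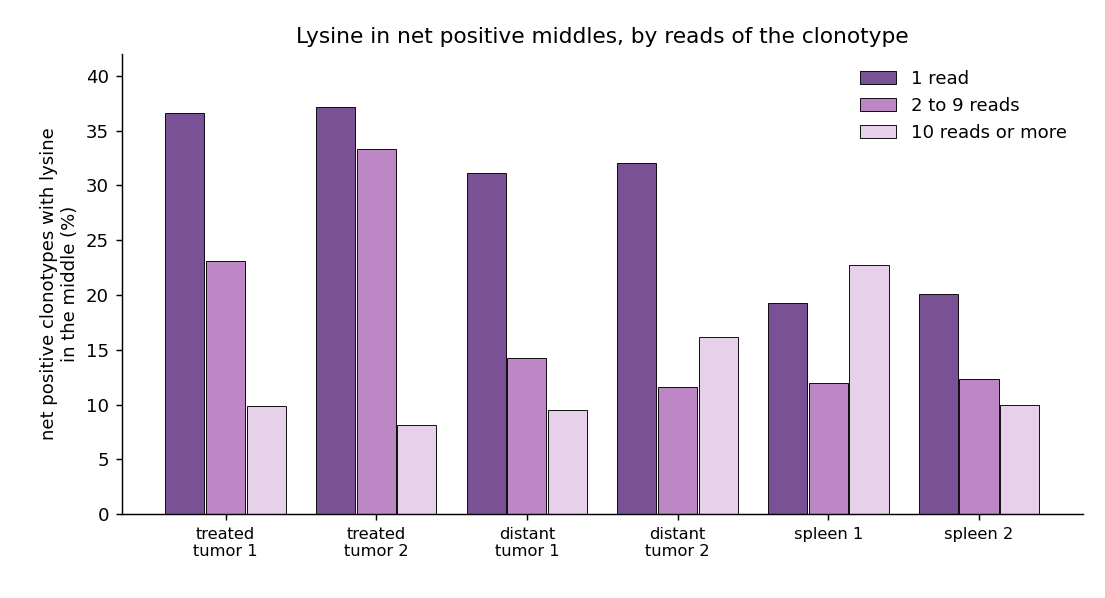
Percent of net positive clonotypes with lysine in the middle, by library and by the reads of the clonotype. At 1 read tumors lie at 31.1% to 37.1% and spleens at 19.3% and 20.1%; at 10 reads or more 3 tumors lie below 10% and the bars of the spleens rest on 22 and 30 members.

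Length changed the share of members little in spleens, from 14.3% and 14.6% at 12 residues to 12.7% and 13.2% at 16. In tumors single lengths stood out, with 21.6% of 15-residue clonotypes in treated tumor 1 and 26.6% of 13-residue clonotypes in treated tumor 2. Those are the lengths of the leading members of these libraries, and a link was not tested. In distant tumor 2 the share was highest at 13 residues, at 19.0%, also the length of its leading member. In distant tumor 1 it was highest at 15 residues, at 19.3%, while its leading member has 13.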

How the data were processed

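Per the file headers, the authors deposited for each library a TRBV gene, a TRBJ gene, the CDR3 in amino acids, a read count and a percent. The counts are whole reads with no normalization. The deposited percent values were checked to be shares of unmarked reads, to within 0.00499 points. Per the labels' protocols, total RNA was made into cDNA with a 5′ adaptor, amplified by nested PCR from the constant region and read on a MiSeq from both ends (300 bp each). The aligner, the germline reference, gene assignment and any error correction: not given in the sources used here. No molecular identifiers are named.

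The libraries held 44472 to 145211 reads, of which 42320 to 135599 were unmarked, in 7539 to 92233 clonotypes. Sortable clonotypes made up 81.6% to 89.3% of these. The floor behind a count of 0 was set at 3 reads, or 0.00221% to 0.00709% of unmarked reads.

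Shares were compared by exact permutation tests over libraries and class measures by exact sign flips, both two-sided (Python 3.11.15, scipy 1.17.1). Genes were tested with edgeR 4.0.16 on library totals in all 6 libraries as 3 groups, with low counts filtered. DESeq2 1.42.0 was an alternative. Germline ends are from GENCODE M21. Scripts were tested on simulated data. The P values measure the spread between these libraries, and tumors of the same number are not independent. The deviations of TRBV usage of members from the group means correlated by 0.584, 0.214 and 0.526 between libraries of the same number (19 genes). These correlations were not set against other pairings and do not test whether equal numbers share a mouse. Equal numbers were read as the same mouse because the series names 2 mice, which the labels do not state per library. The main tests between tissues did not use this pairing, which entered only as an alternative (replicate block). Clonotypes were named by rank of reads (3 members and 1 net negative per library), by presence in all tumors or in both spleens, and genes by p (up to 10) or by the 3 highest and lowest shares. The members, lists and rules were chosen with earlier results of these data known. Alternatives covered the residues dropped, histidine, length, abundance, variants, germline residues, gene mix, depth, scaling, filters and each library left out. The lysine comparison, the by-position count of germline residues and the setting with intact germline ends were added after the data were seen.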

Additional observations from a re-analysis of the deposited data

How the results depend on the processing

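Across 321 alternative values of 21 results, the excess of members among tumor clonotypes over spleens kept its sign throughout, at 3.16 to 3.92 points with 1 library left out. Taking libraries of the same number as pairs (replicate block) changed no call between tissues, and the excess above had an exact permutation p of 0.111. In members against net negative clonotypes the block put tissue and number terms in place of the library term, which already holds both. There 2 calls ended, TRBV5 and TRBJ1-6, leaving 12 TRBV and 9 TRBJ genes. This model cannot show whether those calls hold once the shared mouse is accounted for. The cause of each change that follows was not tested. The share of reads, tumors minus spleens, turned to 0.0669 points without the 10 most abundant clonotypes, 2.79 without germline residues, 2.94 without them by position, 0.117 with the TRBJ and length mix and 0.130 with the TRBV mix standardised, and lay between -2.38 and 0.473 with 1 library left out. The log2 ratio of positive to negative reads, treated minus distant, turned to -0.035 with histidine counted, -0.030 without the 10 most abundant clonotypes, -0.084 without germline residues and -0.025 by position (-0.059 to 0.49 with 1 library left out). For tumors minus spleens it turned to 0.012 with histidine, 0.039 without single reads, 0.48 without germline residues, 0.49 by position and 0.018 with the TRBV mix standardised. The log2 ratio of clonotypes, treated minus distant, turned to -0.0050 without single reads and -0.026 without germline residues (-0.045 to 0.12 with 1 library left out), and tumors minus spleens to -0.19 without germline residues.

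In members minus net negative clonotypes, without germline residues and then by position, length was 0.0334 and 0.0135 residues, the share with 1 read -3.57 and -0.556 points, mean reads 1.77 and 0.914, finding in the other number 0.775 and 0.432 points and in the same number 1.56 and 0.289 points. With 5 residues dropped, length was -0.0567 and mean reads -1.18, and without single reads, mean reads were -2.58 and finding in the same number -5.20 points, none past 0.05. With 1 library left out no sign-flip p can pass, and the values were -0.124 to -0.0915 residues, 6.24 to 6.89 points, -1.95 to -1.23 reads, -4.70 to -3.82 points and -4.30 to -2.97 points. Genes called in members against net negative clonotypes numbered 8 TRBV on reads (11 to 14 with 1 library left out) and, for TRBJ, 6 with DESeq2, 4 with 5 residues dropped, 5 without germline residues and 4 by position (10 to 11). Member rows called between tissues numbered 2 TRBV on clonotypes in tumors minus spleens and 1 TRBJ with DESeq2 in treated minus distant; with 1 library left out, 0 to 2 TRBV in treated minus distant and 0 to 2 TRBJ in tumors minus spleens. With 2 libraries per group no comparison of shares can pass 0.05. Tumors held 7539 to 12761 unmarked clonotypes on 42320 to 83171 unmarked reads. Spleens held 64726 and 92233 on 96907 and 135599 reads.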

Other observations

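Members of middle charge 4 were rare in all tissues, with 4 and 0 clonotypes in treated tumors, 1 and 3 in distant tumors and 3 and 5 in spleens. Among clonotypes with 100 reads or more, members numbered 12 of 101 and 7 of 81 in treated tumors, 2 of 48 and 3 of 36 in distant tumors and 1 of 4 and 2 of 6 in spleens.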
